A study of Mus musculus with 9 samples.

Results

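Mammary adipose stromal cells taken after a pregnancy were compared with those of mice that had never been pregnant, across every probe set that carried exactly 1 gene symbol. The comparison used all 9 arrays of the series, 6 parous and 3 nulliparous. The nulliparous cells (ASC-Ns, 3 arrays) came from 8-week-old female Balb/c mice kept apart from males. The parous cells came from Balb/c females at day 5 of lactation (ASC-Ls, 3 arrays) and at day 3 of involution, when the gland regresses once nursing has ended (ASC-Is, 3 arrays). The mice carried no transgene and received no agent that the labels name. According to the methods of the study, females were 8 weeks old when they were mated, so the parous mice were older than the ASC-N mice, and parity and age cannot be told apart. The cells were released from inguinal fat pads with collagenase and hyaluronidase. The methods describe RNA of low passage cultures, whereas the labels describe digested stroma. Each array is labeled as a biological replicate, but the mice behind it are not given, so every p-value rests on the variation among these preparations alone. In such bulk RNA, fewer cells of a type and less RNA per cell cannot be told apart.

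The fat pad of the mammary gland is reshaped with each pregnancy. Its adipocytes lose lipid and shrink while the epithelium expands to make milk, and they refill as the epithelium dies back after weaning. The stromal fraction of the pad holds fibroblasts and adipocyte progenitors, which become adipocytes under the nuclear receptor Pparg and supply matrix, Wnt modulators and angiogenic factors to the gland.

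Values are log2 signals per probe set, as deposited, and a difference of 1 on this scale is a 2-fold difference. For each probe set, the mean of ASC-Ls and the mean of ASC-Is were given equal weight and set against the mean of ASC-Ns, in a limma fit of all 9 arrays. Rises and falls are named as such where the unadjusted limma p was under 0.05 and the difference was at least 1.5-fold (0.585 on the log2 scale). The gene tables of the study meet the same limits. A change is called shared where the difference from ASC-Ns was at least 1.5-fold in the same direction in ASC-Ls and in ASC-Is taken separately. Both stages were set against the same 3 ASC-N arrays, so their differences are not independent of each other. Named genes without a stated rule were chosen after their values had been seen.

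Before the results, the arrays were checked against marker lists. General stromal genes were high on all arrays (Vim, mean log2 signal 12.47 in ASC-Ns, 12.42 in ASC-Ls and 12.45 in ASC-Is, and Dcn, 11.95, 12.30 and 12.23), whereas the adipocyte hormones Adipoq (4.02, 4.02 and 3.94) and Lep (4.04, 4.13 and 4.09) lay well below the median signal of all probe sets (6.3). The 18 probe sets of 17 basal epithelial markers averaged 8.50 on ASC-L replicate 2 and 6.97 on ASC-I replicate 2, against 5.39 to 5.65 on the other 4 parous arrays and 5.30 to 6.01 on the ASC-N arrays. These 2 arrays also stood highest in the luminal epithelial markers (8.33 and 7.13, against 5.61 to 6.58 on the other arrays) and in the milk genes (6.32 and 5.66, against 5.09 to 5.37). ASC-N replicate 3 was the lowest of all arrays in macrophage markers (5.88) and in cell cycle genes (7.22). With the 2 epithelial-rich arrays left out, a setting planned with their levels known, 125 probe sets were called in place of 66, and 35 of the 66 were still among them. The marker plot by array shows these levels.

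**Figure D1:**
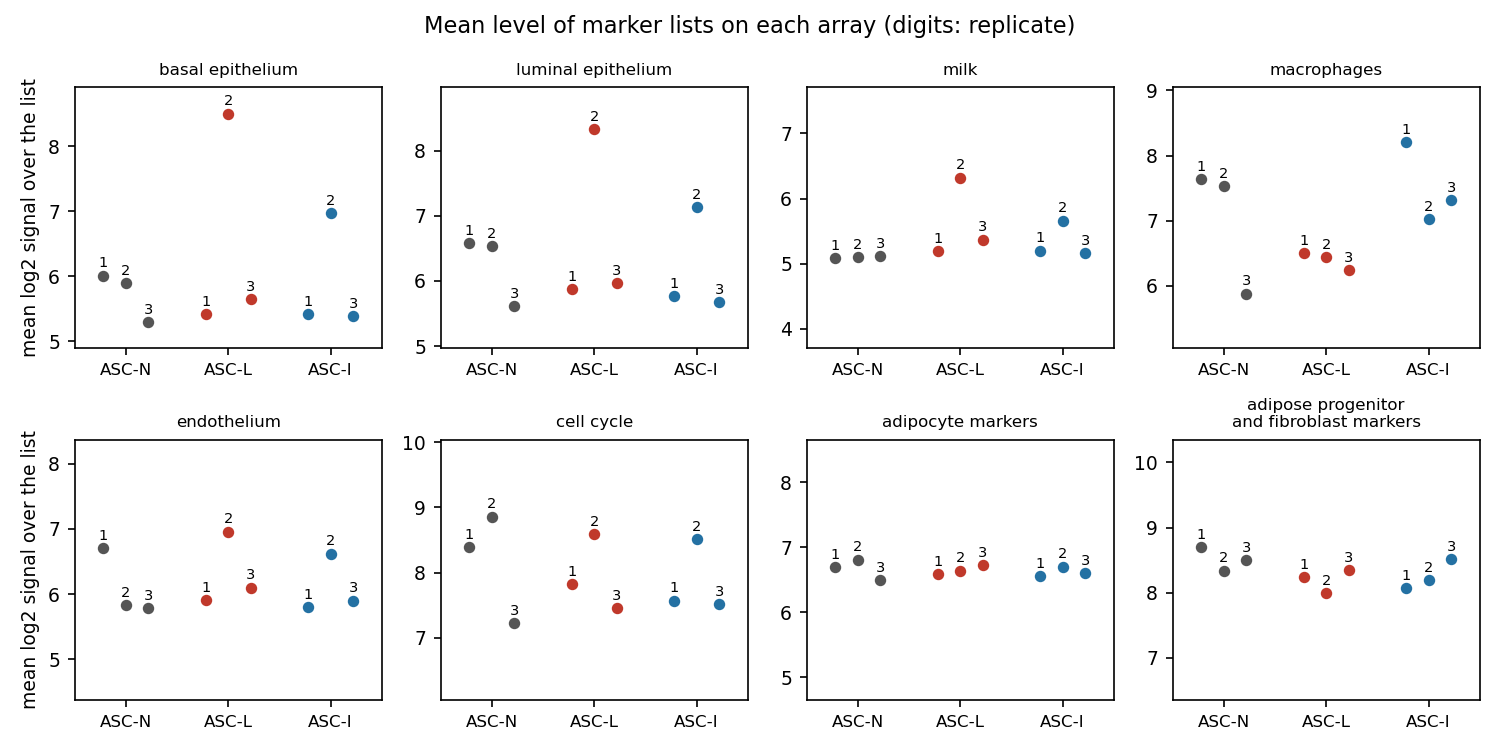
Mean log2 signal over 8 marker lists (y axis) on each of the 3 ASC-N, 3 ASC-L and 3 ASC-I arrays (x axis); each point is 1 array and the digit is its replicate number. ASC-L replicate 2 and ASC-I replicate 2 stand above the other arrays in basal epithelium, luminal epithelium and milk, while the adipocyte markers lie between 6.49 and 6.81 on all 9 arrays.

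Of 21762 probe sets tested, 66 (0.303%) passed both limits, for 63 genes. Falls outnumbered rises, with 55 probe sets lower (0.253%) and 11 higher (0.0505%) in parous cells. The size of this excess depended on single arrays. Without ASC-N replicate 1, 23 were lower and 18 higher, and without ASC-N replicate 3, 272 were lower and 37 higher. None passed after Benjamini-Hochberg adjustment in limma (smallest adjusted p = 1), and 583 had an unadjusted p under 0.05 (2.68%, 311 higher and 272 lower). Changes were shared by both stages at 41 probe sets (0.188%), 38 lower, for 37 genes, and 3 higher, which were Pgf, Mup5 and Chd7. In 12 of the shared probe sets, for 11 genes, all 6 parous arrays lay on one side of all 3 ASC-N arrays. These genes were Pgf, higher, and Sned1, Meox2, Pparg, Arsi, Trabd2b, Frmd3, Vstm4, Jakmip2, Smad6 and Lrrc39, lower. Among all probe sets tested, whatever their p, the parous arrays lay wholly below the ASC-N arrays in 133 (0.611%) and wholly above them in 249 (1.14%). Over all probe sets, the median difference was 0.003 and 50.9% were higher in parous cells. Since 21 of the 41 shared probe sets had a mean signal below the median of 6.3, and detection was not tested, low signals stand behind part of this set.

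Lactation against involution is a second contrast of the same fit. Both contrasts use the same variance of each probe set, and a change in 1 stage alone enters both, so their calls are not independent. The stage contrast was past the same limits at 99 probe sets (0.455%). It was past them at 4 of the 66 parous calls (6.06%) and at 0 of the 41 shared ones, where the largest difference between the stages was 0.84. Arrays of ASC-Ls and ASC-Is with the same replicate number deviated together from their group means (r = 0.46, 0.72 and 0.45). With the replicate number as a block, the stages differed at 210 probe sets (0.965%, smallest adjusted p = 0.996 in limma), among them 7 of the 66 parous calls and 0 of the 41 shared ones. The 7 were P3h2, Kcnma1, Gabra3, Osr1, Gch1, Vdr and Stk38l, and Aldh1a2 did not pass. The shared rule itself favors small differences between the stages. In 29 of the 38 shared falls the mean of ASC-Ls was below that of ASC-Is. When each stage had to pass both limits on its own against ASC-Ns, 19 probe sets remained, 18 lower and 1 higher.

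**Figure D2:**
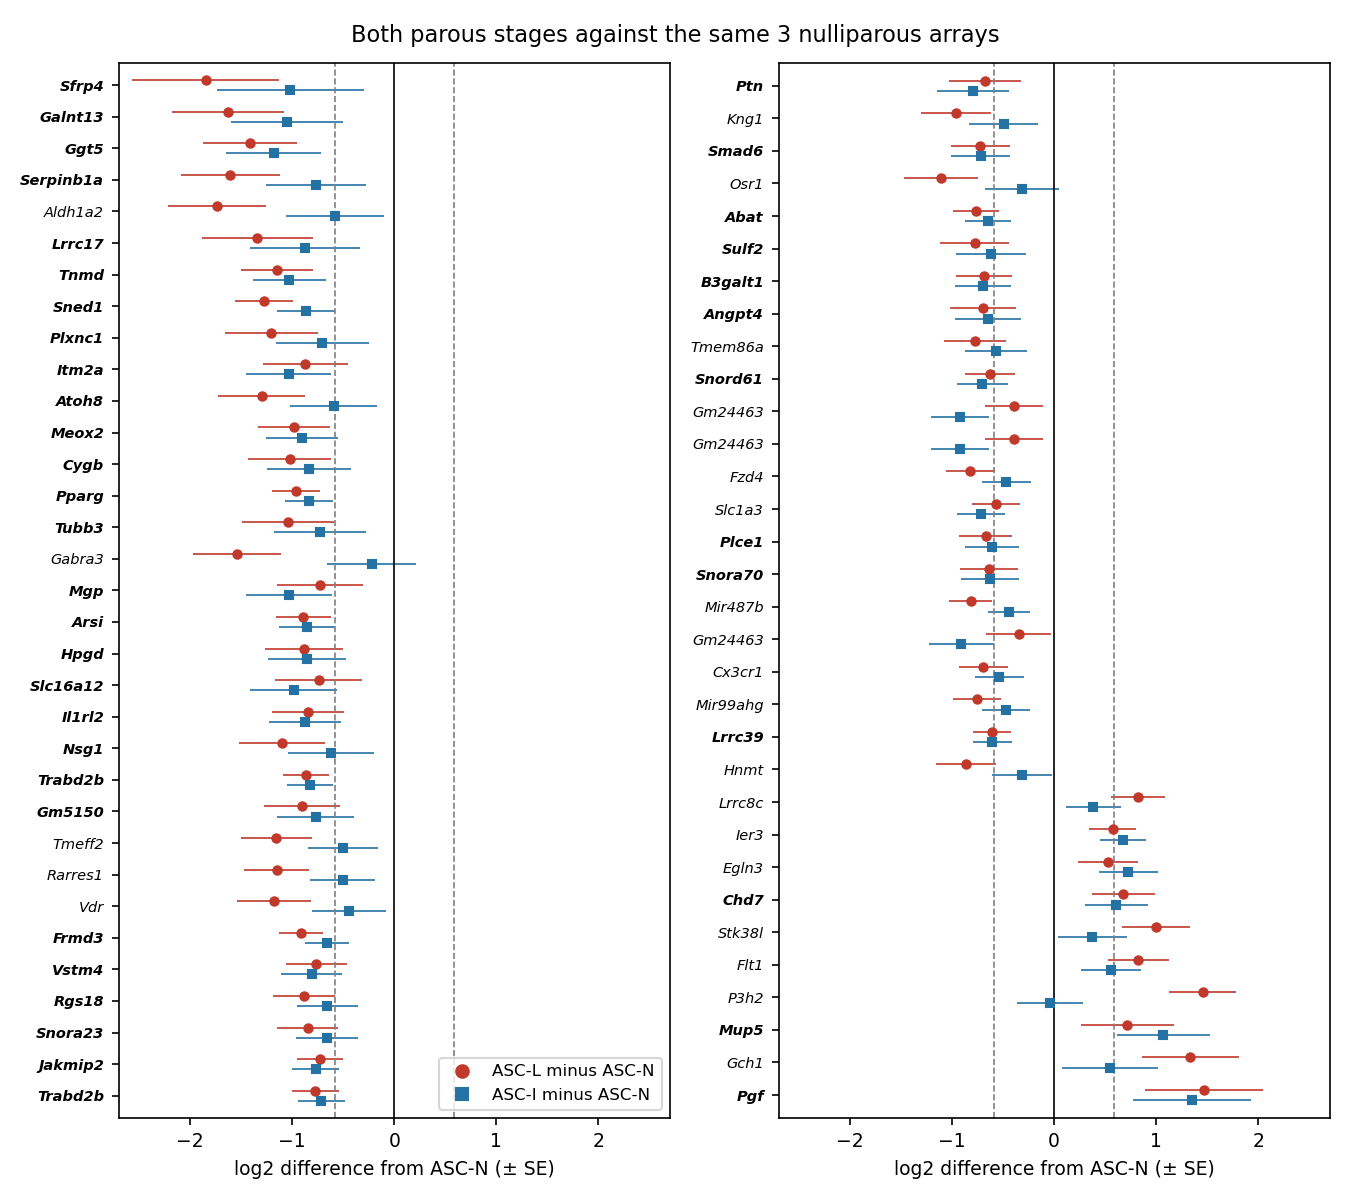
Log2 difference from the 3 ASC-N arrays (x axis, ± standard error of the limma fit) for each called probe set except that of Kcnma1 (y axis), with ASC-Ls as red circles, ASC-Is as blue squares, names of shared changes in bold and dashed lines at 1.5-fold. Both stages lie on the same side of 0 for every probe set drawn except P3h2, where ASC-Ls were at 1.46 and ASC-Is at -0.04.

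The placental growth factor Pgf, a secreted ligand of the VEGF family that binds the receptor Flt1 on endothelial cells and monocytes, was the largest shared rise. Its log2 signal was 6.82, 6.72 and 6.57 on the ASC-N arrays, 8.45, 8.88 and 7.18 on the ASC-L arrays and 7.49, 9.41 and 7.27 on the ASC-I arrays. The ASC-N arrays lay close together, and the lowest parous array stood 0.36 above the highest of them. Pgf rose 2.66-fold, by 1.41 on the log2 scale (standard error 0.50), with 1.47 in ASC-Ls and 1.35 in ASC-Is. Its 2 highest signals, 9.41 and 8.88, were on ASC-I replicate 2 and ASC-L replicate 2, the epithelial-rich arrays. The call held without both of them, but their part in the size of the rise was not tested. Over the fits that left out 1 array, the difference ran from 1.07 to 1.66. Without ASC-N replicate 3 the difference was 1.34 and no longer passed the limit on p. The study examined angiogenic factors by RT-PCR in ASC-Ns, ASC-Ls and cells of regressed glands, not in ASC-Is. Only Vegfd and Il6 were significantly elevated in ASC-Ls there, and Pgf, also examined, was not. Its receptor Flt1, which also takes up Vegfa, rose by 0.69 (standard error 0.26), from 6.90, 6.13 and 6.57 on the ASC-N arrays to 7.54, 7.82 and 6.71 on the ASC-L arrays and 7.06, 7.32 and 6.89 on the ASC-I arrays. ASC-L replicate 3 and ASC-I replicate 3 overlapped with ASC-N replicate 1, and the rise was not shared, with 0.82 in ASC-Ls and 0.56 in ASC-Is. The Flt1 call was lost when ASC-N replicate 2 (0.49), ASC-N replicate 3 (0.71, with p over its limit) or ASC-L replicate 2 (0.57) was left out, and when both epithelial-rich arrays were (0.52). Flt1 is itself a marker of the endothelium, whose list averaged 6.96 on ASC-L replicate 2 and 6.62 on ASC-I replicate 2 against 5.78 to 6.71 on the other arrays, and the part of endothelial RNA in its rise was not tested.

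Of the other VEGF and angiopoietin ligands, Angpt4, a ligand of the receptor Tek, fell by 0.67 (standard error 0.28). Angpt4 was 7.32, 7.44 and 7.55 on the ASC-N arrays, 6.50, 6.14 and 7.57 on the ASC-L arrays and 6.94, 6.46 and 6.97 on the ASC-I arrays. ASC-L replicate 3 was as high as the ASC-N arrays, and the call held in 2 of the 9 fits that left out 1 array, with differences from -0.88 to -0.52. Together, 8 ligands held 1 rise and 1 fall (median -0.02), and 7 receptors, Flt1, Kdr, Flt4, Nrp1, Nrp2, Tek and Tie1, held 1 rise (median 0.09). Vegfa, the main angiogenic ligand, was 10.61 in ASC-Ns, 10.76 in ASC-Ls and 10.83 in ASC-Is (difference 0.18, exact permutation p = 0.31). The lymphatic ligand Vegfd differed by -1.0 (standard error 0.91, exact permutation p = 0.464), with 6.73 on ASC-L replicate 2 against 12.04 on ASC-I replicate 3, and by 0.01 without the 2 epithelial-rich arrays. By stage, Vegfd differed by -1.87 in ASC-Ls (standard error 1.05) and by -0.13 in ASC-Is (standard error 1.05). The ASC-L value, which did not pass the limit on p, has the opposite sign to the elevation that the study found by RT-PCR.

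Promoter windows were read for the ligand and the receptor that rose, and for 2 of the shared falls without overlap, Pparg and Sned1. They came from the RefSeq tables of GRCm38.p6 (250 bases before to 50 after the start, on the strand of the gene). Windows were found for 43 of the 63 called genes. Motifs searched on both strands were the hypoxia response core (ACGTG or GCGTG), the GC element bound by Smads of the BMP pathway (GGCGCC), the E-box CACGTG, which contains the first of these cores, the STAT site (TTCNNNGAA) and the TATA box (TATAAA). Capitals mark the matches, also where the match is on the other strand.
Pgf, chr12:85177264-85177563, minus strand: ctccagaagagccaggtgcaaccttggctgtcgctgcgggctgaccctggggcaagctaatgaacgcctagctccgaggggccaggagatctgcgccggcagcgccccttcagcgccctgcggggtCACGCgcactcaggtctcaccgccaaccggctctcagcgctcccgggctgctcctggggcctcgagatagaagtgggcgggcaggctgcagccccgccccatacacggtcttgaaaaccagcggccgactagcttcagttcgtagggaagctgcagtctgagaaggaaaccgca
Flt1, chr5:147725962-147726261, minus strand: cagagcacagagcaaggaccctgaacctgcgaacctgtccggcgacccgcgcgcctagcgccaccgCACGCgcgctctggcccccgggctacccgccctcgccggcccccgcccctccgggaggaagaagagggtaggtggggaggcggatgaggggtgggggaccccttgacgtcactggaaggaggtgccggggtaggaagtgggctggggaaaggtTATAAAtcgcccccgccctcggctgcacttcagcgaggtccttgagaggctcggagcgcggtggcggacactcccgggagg
Pparg, upstream start, chr6:115360894-115361193, plus strand: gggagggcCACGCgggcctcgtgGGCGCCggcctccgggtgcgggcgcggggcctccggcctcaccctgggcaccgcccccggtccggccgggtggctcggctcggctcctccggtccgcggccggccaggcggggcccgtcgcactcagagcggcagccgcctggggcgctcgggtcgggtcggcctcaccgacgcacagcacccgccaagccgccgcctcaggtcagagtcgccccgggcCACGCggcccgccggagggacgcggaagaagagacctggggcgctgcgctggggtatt
Pparg, downstream start, chr6:115421816-115422115, plus strand: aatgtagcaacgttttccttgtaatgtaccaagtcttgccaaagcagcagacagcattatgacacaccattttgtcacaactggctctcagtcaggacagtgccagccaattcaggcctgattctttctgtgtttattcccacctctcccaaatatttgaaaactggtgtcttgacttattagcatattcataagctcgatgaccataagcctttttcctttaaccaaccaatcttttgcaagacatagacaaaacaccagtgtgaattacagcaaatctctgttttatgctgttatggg
Sned1, chr1:93235647-93235946, plus strand: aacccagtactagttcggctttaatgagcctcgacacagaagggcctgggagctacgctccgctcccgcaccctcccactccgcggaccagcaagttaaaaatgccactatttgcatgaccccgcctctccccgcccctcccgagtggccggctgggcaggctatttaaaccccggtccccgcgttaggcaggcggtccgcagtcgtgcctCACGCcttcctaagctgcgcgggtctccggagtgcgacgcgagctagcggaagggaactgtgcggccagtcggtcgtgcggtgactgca
The hypoxia core stood once in the windows shown for Pgf, Flt1 and Sned1 and at 2 places in the upstream window of Pparg. RefSeq also lists a downstream start of Pgf, whose window, not shown, held 0 hypoxia cores and 1 GC element. It was in 28 of the 43 called genes with a window, and in 46.7% of the 27025 genes of the table. The GC element was in 13 of the 43 (13.4% of all genes), the E-box in 5 (8.09%), the STAT site in 3 (9.55%) and the TATA box in 12 (15.7%). Pparg had 3 windows, with 80.3% G or C at the upstream start, 62.7% at a start between them that is not shown and 40.3% at the downstream one, beside a median of 52.7% over all windows. The window between them held 0 hypoxia cores and 1 TATA box. A match is only a description of these letters, and a window without one says nothing of a factor.

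Pparg, Meox2 and Smad6, among the genes without overlap, code for regulators of transcription, and the share of such regulators over all genes was not determined. Pparg, the nuclear receptor that drives adipocyte differentiation, was 7.61, 8.26 and 7.83 on the ASC-N arrays, 6.95, 6.63 and 7.23 on the ASC-L arrays and 7.03, 6.74 and 7.42 on the ASC-I arrays. All parous arrays lay below all ASC-N arrays, with a gap of 0.19. Pparg fell 1.86-fold, by 0.90 on the log2 scale (standard error 0.20), by 0.96 in ASC-Ls and by 0.83 in ASC-Is. It was called in all 9 fits that left out 1 array, with differences from -1.04 to -0.72. Meox2, a homeobox factor of mesenchyme, fell by 0.94 (standard error 0.31), from 7.40, 5.82 and 6.18 on the ASC-N arrays to between 5.28 and 5.75 on the 6 parous arrays. ASC-N replicate 1 stood far above the other two, and without it the difference of Meox2 was -0.47 and under the fold limit. Smad6, an inhibitor inside the BMP pathway, fell by 0.72 (standard error 0.25), from 7.64, 7.80 and 7.46 to 7.27, 6.52 and 6.95 in ASC-Ls and 7.02, 6.29 and 7.43 in ASC-Is. ASC-I replicate 3 lay only 0.03 below ASC-N replicate 3, and the Smad6 call was lost without ASC-N replicate 2 (-0.64, with p over its limit) or ASC-I replicate 2 (-0.57). The call was also lost without both epithelial-rich arrays, whose Smad6 signals, 6.52 and 6.29, were the lowest.

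In the other called regulators the groups overlapped. The basic helix-loop-helix factor Atoh8 fell by 0.95 (standard error 0.37), where ASC-I replicate 3, at 8.50, lay above all ASC-N arrays (8.06, 8.22 and 8.11). The vitamin D receptor Vdr fell by 0.81 (standard error 0.32), by 1.18 in ASC-Ls and with -0.44 in ASC-Is, so its change was not shared. Osr1, a factor of mesenchymal progenitors, fell by 0.71 (standard error 0.31), again without being shared (-1.11 and -0.32). Chd7, a chromatin remodeler, rose by 0.64 (standard error 0.27), with 0.68 in ASC-Ls and 0.61 in ASC-Is, from 6.33, 6.03 and 5.94 to 6.11, 7.53 and 6.68 in ASC-Ls and 6.70, 6.87 and 6.55 in ASC-Is. Of the 9 fits that left out 1 array, 4 called Atoh8, 4 called Vdr, 3 called Osr1 and 3 called Chd7.

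**Figure D3:**
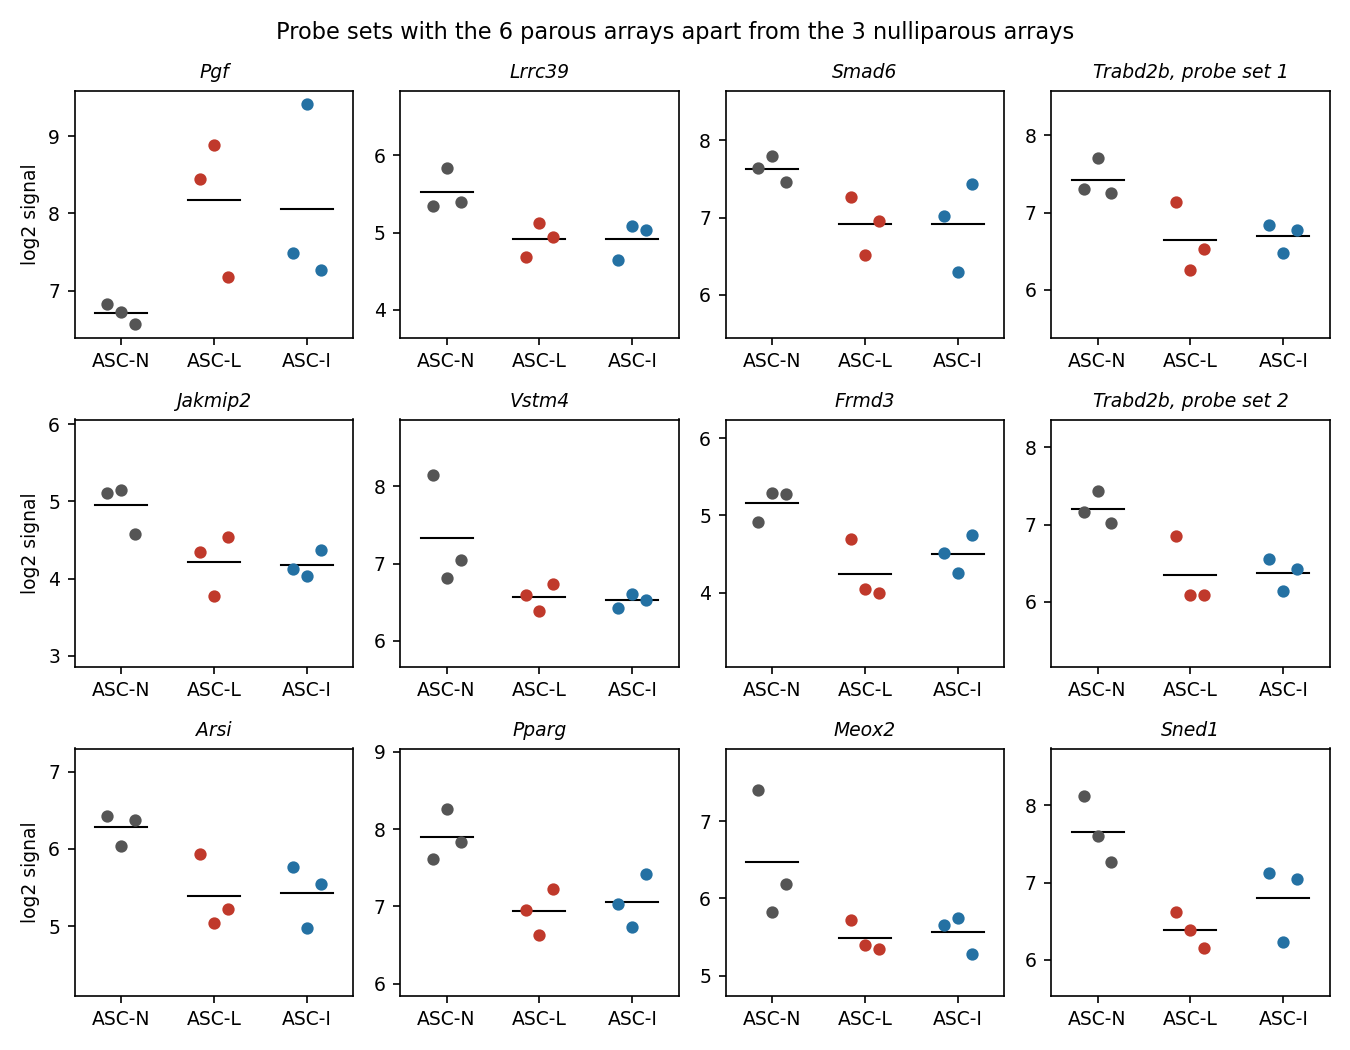
Log2 signal (y axis, the same span in each panel) on the ASC-N, ASC-L and ASC-I arrays (x axis, 3 points each; bars are group means) for the 12 shared probe sets without overlap, ordered by their difference. Pgf lies above the ASC-N arrays on all 6 parous arrays and the other 11 probe sets lie below them, with single high ASC-N arrays in Meox2 and Vstm4; the second Trabd2b panel is the probe set with the larger fall.

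Among genes of adipose biology, the 28 regulators of adipogenesis held 1 fall, Pparg, and 23 of their 29 probe sets were lower (median -0.12, beside 0.003 over all probe sets). The early adipogenic factor Zfp423 differed by -0.32 (standard error 0.09), under the fold limit, and Cebpa, the partner of Pparg in adipogenesis, by -0.29 (standard error 0.15). None of the 25 adipocyte markers passed (median -0.03, with 15 of 26 probe sets lower). The insulin-sensitive glucose transporter Slc2a4 had the smallest p of the list and missed only the fold limit. Slc2a4 was 5.75, 5.59 and 5.62 on the ASC-N arrays, 6.30, 6.42 and 6.19 on the ASC-L arrays and 6.13, 6.19 and 5.86 on the ASC-I arrays. All parous arrays lay above all ASC-N arrays (difference 0.53, standard error 0.11, exact permutation p = 0.0119). Slc2a4 was named from these same values, so the permutation value describes the separation and does not test it. Lpl, which releases fatty acids from lipoproteins, differed by -0.55 (standard error 0.51), Fabp4, a fatty acid carrier, by -0.23 (standard error 0.18), the lipase Lipe by -0.02 (standard error 0.12) and Klf2, a factor that restrains adipogenesis, by -0.22 (standard error 0.19). Of the 10 probe sets with the smallest p in the whole comparison, 4 passed the fold limit, those of Pparg, Sned1, Trabd2b and Frmd3. The other 6 differed by 0.50 to 0.53 either way, and were Slco6c1, Slfn4 and Slc2a4, higher, and Zdhhc17, Il17ra and Slc16a7, lower.

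Markers of adipose progenitors and fibroblasts held the most calls of any list, 5 falls and 0 rises among 30 genes (median -0.14, 21 of 30 probe sets lower). The 5 were Sfrp4, Ggt5, Meox2, Mgp and Osr1. Over all 19930 genes tested, 52 fell and 11 rose. The list was chosen with earlier results of these data known, and it includes genes known to have fallen. Its number of calls is thus partly set by that choice. The largest shared fall was that of Sfrp4, a secreted binder of Wnt proteins, which was 8.27, 6.46 and 7.37 on the ASC-N arrays, 6.06, 5.33 and 5.17 on the ASC-L arrays and 6.12, 4.92 and 8.00 on the ASC-I arrays. It fell by 1.43 (standard error 0.63), yet ASC-I replicate 3 lay above 2 of the 3 ASC-N arrays, and the call held in 3 of the 9 fits that left out 1 array, with differences from -1.89 to -0.98. Ggt5, an enzyme that cleaves glutathione conjugates such as a leukotriene, fell 2.46-fold, by 1.3 (standard error 0.40), from 7.65, 7.56 and 6.03 to between 5.19 and 6.43. ASC-N replicate 3 lay among the parous arrays, and the call was lost without ASC-N replicate 1 (-1.01) or ASC-N replicate 2 (-1.06), in both cases by the limit on p. Mgp, an inhibitor of matrix calcification, fell by 0.88 (standard error 0.37), with ASC-L replicate 3 (8.59) and ASC-I replicate 3 (8.30) among the ASC-N arrays (8.65, 8.24 and 8.81). General progenitor markers did not pass, among them Pdgfra (-0.90, standard error 0.44), Thy1 (-0.31) and Cd34 (-0.44).

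Besides Mgp, and P3h2 described below, called genes whose products lie in the matrix, bind it or act on it included Sned1, Tnmd, Ptn and Sulf2. Sned1, a secreted glycoprotein of the extracellular matrix, was 8.12, 7.60 and 7.26 on the ASC-N arrays, 6.62, 6.38 and 6.15 on the ASC-L arrays and 7.12, 6.23 and 7.04 on the ASC-I arrays. No array crossed, and Sned1 fell 2.11-fold, by 1.07 (standard error 0.25), the largest fall among probe sets without overlap. It was called in every fit that left out 1 array, between -1.27 and -0.84. Tenomodulin (Tnmd), a membrane glycoprotein of tendon that adipose progenitors also make, fell by 1.09 (standard error 0.31), from 6.98, 6.30 and 5.65 to 5.61, 4.74 and 5.12 in ASC-Ls and 5.73, 4.94 and 5.17 in ASC-Is. ASC-I replicate 1 lay 0.08 above ASC-N replicate 3, and Tnmd was called in all 9 fits that left out 1 array. Pleiotrophin (Ptn), a heparin-binding growth factor, fell by 0.74 (standard error 0.30) but was 6.62, 5.81 and 4.92 on the ASC-N arrays, the last within the parous range of 4.87 to 5.25. Sulf2, which trims sulfate from heparan chains and so alters ligand binding, fell by 0.70 (standard error 0.29), with ASC-I replicate 3 (8.42) as high as the ASC-N arrays (8.01, 8.39 and 8.40). Ptn was called in 3 and Sulf2 in 4 of the 9 fits that left out 1 array, and Ptn differed by -0.32 without ASC-N replicate 1. Of 12 tendon and fascia genes 2 fell (median -0.16), of 50 collagens and structural matrix genes 1 fell, Sned1 (median -0.06), and of 41 matrix proteases and inhibitors 0 passed (median -0.10), where Mmp10 differed by 1.31 (standard error 1.00) and Mmp9 by 1.18 (standard error 0.90).

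In the Wnt pathway, 2 of 45 genes fell, Sfrp4 and the receptor Fzd4, and 0 rose (median 0.05). Fzd4 fell by 0.65 (standard error 0.21), by 0.82 in ASC-Ls and with -0.47 in ASC-Is, where ASC-I replicate 1 (8.23) lay above ASC-N replicate 2 (8.07). Trabd2b, a membrane protease that inactivates Wnt proteins and was not on the list, fell in both of its probe sets. The first was 7.16, 7.43 and 7.02 on the ASC-N arrays, 6.85, 6.09 and 6.09 on the ASC-L arrays and 6.56, 6.14 and 6.43 on the ASC-I arrays, a fall of 0.84 (standard error 0.19). The second fell by 0.74 (standard error 0.20), and neither had overlapping arrays. Both were called in all 9 fits that left out 1 array. In the TGF-beta and BMP pathway 1 of 46 genes fell, Smad6 (median -0.03). The BMP target Id1 differed by -0.42 (standard error 0.14), under the fold limit, and Gdf10, a secreted BMP family member, by -1.04 (standard error 0.47).

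The remaining shared falls without overlap were Arsi, Frmd3, Jakmip2, Vstm4 and Lrrc39. Arsi, of the arylsulfatase family, was 6.43, 6.04 and 6.38 on the ASC-N arrays, 5.93, 5.04 and 5.22 on the ASC-L arrays and 5.77, 4.97 and 5.55 on the ASC-I arrays, and fell by 0.87 (standard error 0.23). Frmd3, a FERM domain protein, fell by 0.79 (standard error 0.19), from 4.91, 5.29 and 5.27 to between 3.99 and 4.74. Jakmip2, a microtubule-associated protein, fell by 0.75 (standard error 0.20), from 5.11, 5.15 and 4.58 to between 3.77 and 4.54. Arsi, Frmd3 and Jakmip2 had a gap of 0.11, 0.17 and 0.04 between the groups, lay at low signals, and were called in all 9 fits that left out 1 array. Vstm4, a membrane protein with an immunoglobulin domain, fell by 0.79 (standard error 0.26), from 8.14, 6.81 and 7.05 to between 6.39 and 6.74, and without ASC-N replicate 1 the difference was -0.38. Lrrc39, a leucine-rich repeat protein known from muscle, fell by 0.61 (standard error 0.16), from 5.34, 5.84 and 5.40 to between 4.64 and 5.13. It had the widest gap of the falls, 0.21, but lay close to the fold limit and went under it when ASC-I replicate 1 (-0.54), ASC-N replicate 2 (-0.45) or ASC-L replicate 1 (-0.55) was left out.

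An exact two-sided permutation test over the 84 splits of the arrays into 6 and 3 can reach 0.0119 at the least. Among the 11 genes without overlap it gave that value for Sned1, Meox2, Pparg, Trabd2b, Vstm4, Jakmip2 and Lrrc39, 0.0238 for Arsi and Frmd3, and 0.0357 for Pgf and Smad6. These genes were chosen because their arrays did not overlap, so the values describe the separation and do not test it.

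Of 21 retinoid genes 2 fell, Aldh1a2 and Rarres1 (median -0.12). Aldh1a2, which makes retinoic acid from retinaldehyde, fell by 1.16 (standard error 0.42), from 9.65, 9.06 and 10.34 to 7.89, 8.94 and 7.01 in ASC-Ls and 9.11, 8.71 and 9.50 in ASC-Is. The ASC-I arrays lay closer to the ASC-N arrays (-0.58) than the ASC-L arrays did (-1.74), and the call was lost without ASC-N replicate 1 (-1.18) or ASC-N replicate 3 (-0.83), in both cases by the limit on p. Rarres1, a gene induced by retinoic acid, fell by 0.83 (standard error 0.28), by 1.15 in ASC-Ls and with -0.51 in ASC-Is, so its change was not shared. ASC-I replicate 3 (6.91) lay among the ASC-N arrays (6.92, 6.57 and 6.72). The retinoic acid binding protein Crabp1 was 8.76, 7.94 and 8.96 on the ASC-N arrays, 9.99, 9.73 and 11.15 on the ASC-L arrays and 7.45, 9.52 and 9.09 on the ASC-I arrays (difference 0.94, standard error 0.48, exact permutation p = 0.262). This pooled value covers unlike stages, with 1.74 in ASC-Ls and 0.13 in ASC-Is (standard error 0.56 each). The stages differed by 1.61 (standard error 0.56). Galnt13, which was on no list, fell by 1.34 (standard error 0.47), the largest shared fall after that of Sfrp4. ASC-I replicate 3 (7.62) was as high as the ASC-N arrays (7.36, 7.61 and 7.29). Galnt13 was called in 8 of the 9 fits that left out 1 array. Called genes of other metabolism that were on no list included Hpgd, Abat, Slc1a3 and Gch1. Hpgd, which inactivates prostaglandins, fell by 0.87 (standard error 0.33), by 0.88 in ASC-Ls and by 0.85 in ASC-Is, with ASC-N replicate 2 (5.63) inside the parous range of 4.92 to 6.23. Abat, which degrades GABA, fell by 0.70 (standard error 0.20), and the GABA receptor subunit Gabra3 by 0.88 (standard error 0.37). The glutamate transporter Slc1a3 fell by 0.64 (standard error 0.20) without overlap, from 6.51, 5.59 and 5.68 to between 4.95 and 5.46. It was not shared, since ASC-Ls differed by -0.57, and without ASC-N replicate 1 the difference was -0.35. Gch1, the first enzyme of tetrahydrobiopterin synthesis, rose by 0.94 (standard error 0.41), with 1.34 in ASC-Ls and 0.55 in ASC-Is.

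Of immune and growth factor genes, few passed. In 57 cytokines, chemokines and receptors 2 fell (median -0.07), the interleukin receptor subunit Il1rl2 by 0.86 (standard error 0.31) and the fractalkine receptor Cx3cr1 by 0.62 (standard error 0.21). Il1rl2 was 9.56, 9.73 and 9.33 on the ASC-N arrays, with ASC-L replicate 3 (9.39) and ASC-I replicate 3 (9.26) near them and the other 4 parous arrays between 8.02 and 8.67. Cx3cr1, also a macrophage marker, was 6.61, 6.74 and 5.83 on the ASC-N arrays and 5.56 to 6.09 on the parous arrays. It was the 1 fall among 36 macrophage genes, whose median was -0.06 with opposite signs in the stages (-0.67 in ASC-Ls and 0.52 in ASC-Is), and the part of macrophage RNA in it was not tested. In 52 growth factors and receptors 1 rose, Pgf, and 1 fell, Ptn (median 0.03). Il6, an inflammatory cytokine, differed by 0.87 (standard error 0.70, exact permutation p = 0.333), between 7.92 and 11.05 on the ASC-N arrays and 8.50 and 11.21 on the parous arrays. Plxnc1, a semaphorin receptor, and Gabra3 were the 2 falls among 50 axon guidance and neuronal surface genes (median -0.08). Vdr was the 1 fall among 21 hormone receptors (median -0.06).

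The lists of glycolysis and hypoxia and of immediate early genes held 1 rise each. Egln3, a prolyl hydroxylase that marks hypoxia-inducible factors for decay, rose by 0.63 (standard error 0.25), the 1 call among 29 glycolysis and hypoxia genes (median 0.04). Egln3 was 8.16, 7.66 and 8.43 on the ASC-N arrays, 8.98, 7.97 and 8.89 on the ASC-L arrays and 8.79, 8.60 and 9.05 on the ASC-I arrays, with ASC-L replicate 2 among the ASC-N arrays. Ier3, an early response gene that limits cell death, rose by 0.63 (standard error 0.20), the 1 call among 22 immediate early genes (median -0.11), and ASC-N replicate 3 (9.68) lay above ASC-L replicate 3 (9.51). Lrrc8c, a subunit of volume-regulated anion channels, rose by 0.60 (standard error 0.23) without overlap, from 9.0, 8.96 and 8.51 to between 9.04 and 10.27, and the rise was not called once replicate 2 of either parous stage (0.45 for ASC-Ls and 0.53 for ASC-Is) or ASC-N replicate 3 (0.45) was left out. Egln3 was called in 3 and Ier3 in 6 of the 9 fits that left out 1 array, and Egln3 differed by 0.42 without ASC-N replicate 2. No member passed among cell cycle genes, although 41 of the 47 probe sets of that list were lower (median -0.29). Their mean was 8.39, 8.86 and 7.22 on the ASC-N arrays and 7.45 to 8.59 on the parous arrays, so the groups overlapped.

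Apart from that of the endothelium, the remaining lists held no called gene. Among other cell types, all 18 basal epithelial probe sets were higher (median 0.55, 0.84 in ASC-Ls and 0.13 in ASC-Is), as were 13 of 15 milk probe sets (median 0.34) and 21 of 26 luminal epithelial ones (median 0.17), with the 2 epithelial-rich arrays behind the levels given above. Krt5, a basal keratin, shows this, with 11.39 on ASC-L replicate 2 and 9.48 on ASC-I replicate 2, against 5.43 to 6.63 on the other parous arrays and 5.03 to 7.05 on the ASC-N arrays. Its difference was 1.07 with all arrays and -0.47 without these 2. Of 21 endothelial genes 1 rose, Flt1 (median 0.14). Medians were 0.11 for neutrophil, 0.04 for T and NK cell, 0.05 for B cell, 0.11 for erythroid, -0.04 for pericyte and smooth muscle, and -0.10 for Schwann cell genes. They were -0.03 for muscle and satellite cell genes, -0.07 for interferon response, -0.15 for complement, 0.04 for Hox and positional genes, 0.01 for the unfolded protein response and 0.27 for 7 genes known to stay changed in the whole gland after pregnancy.

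**Figure D4:**
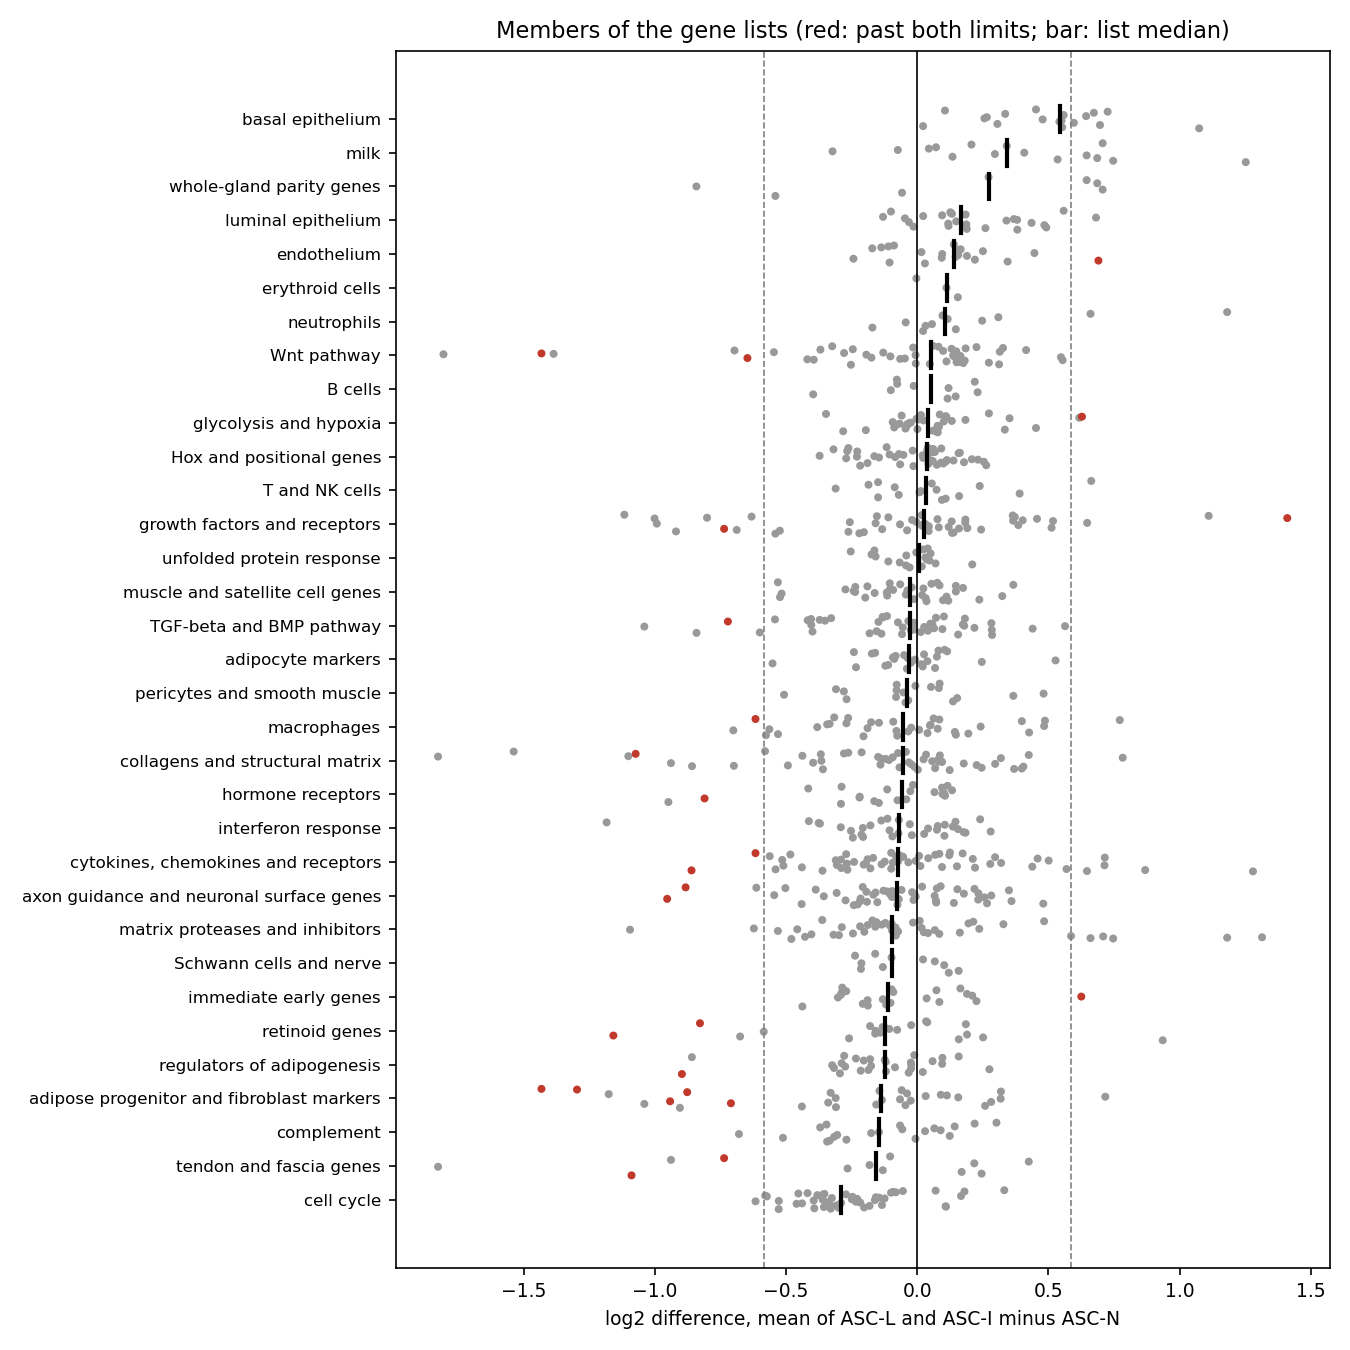
Log2 difference between parous and nulliparous arrays (x axis) for each probe set (point) of the 33 gene lists (y axis, ordered by median); red points passed both limits, black bars are list medians and dashed lines mark 1.5-fold. Progenitor and fibroblast markers, a list that includes genes known to have fallen, hold 5 red points, all on the lower side. All 18 basal epithelial probe sets lie above 0.

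The small nucleolar RNAs Snora23, Snora70 and Snord61, which guide modification of ribosomal and spliceosomal RNA, fell by 0.75, 0.63 and 0.66 (standard errors 0.26, 0.25 and 0.21). They were called in 8, 5 and 7 of the 9 fits that left out 1 array. Without ASC-N replicate 1 Snora70 differed by -0.31 and Snord61 by -0.41, and neither was called. Snora70 also lost its call when replicate 1 or 3 of ASC-Ls or replicate 3 of ASC-Is was left out, and Snord61 when replicate 3 of ASC-Ls was. The predicted RNA Gm24463 fell by 0.66, 0.66 and 0.63 in 3 of its 5 probe sets, 2 of which held identical values, with -0.92 in ASC-Is and -0.39 in ASC-Ls in the first. The 3 were called in 5, 5 and 2 of the fits that left out 1 array, the third with -0.42 without ASC-N replicate 1. Near-identical copies of such short RNAs may share probes. Mir487b, a microRNA of an imprinted cluster, fell by 0.63 (standard error 0.18), from 6.75, 6.32 and 6.42 on the ASC-N arrays to 5.82, 5.96 and 5.26 on the ASC-L arrays and 6.20, 5.80 and 6.16 on the ASC-I arrays. No array crossed, but ASC-Is differed by only -0.44, so the change was not shared. Its call did not hold when ASC-I replicate 2 (-0.57), ASC-N replicate 1 (-0.50) or ASC-L replicate 3 (-0.53) was left out. The probe set covers the gene, and mature arms were not measured apart. The mature arm that RefSeq lists (GRCm38.p6, chr12:109727347-109727367, plus strand) is shown with its seed, bases 2 to 8, in capitals.
mmu-miR-487b-5p: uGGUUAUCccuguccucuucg

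The 4 calls that differed between the parous stages were P3h2, Kcnma1, Aldh1a2 and Gabra3. P3h2, a prolyl hydroxylase of collagen, was 6.32, 6.17 and 5.68 on the ASC-N arrays, 6.82, 7.55 and 8.17 on the ASC-L arrays and 5.80, 6.37 and 5.89 on the ASC-I arrays. Its parous rise of 0.71 (standard error 0.28) stood in the ASC-L arrays alone, and the stages differed by 1.49 (standard error 0.33). A probe set annotated to the potassium channel Kcnma1 had a parous rise of 2.40 (standard error 1.00) that stood in ASC-Is. It was 12.34, 8.66 and 11.37 there, 4.39, 4.91 and 5.62 in ASC-Ls and 4.21, 4.21 and 8.03 in ASC-Ns. It was called in 3 of the 9 fits that left out 1 array, with differences from 1.76 to 3.67. The tables of the study name this probe set Mela. The other Kcnma1 probe set differed by -0.22 (standard error 0.15). Gabra3 was 5.35, 4.49 and 5.53 in ASC-Ls and 7.04, 5.42 and 6.88 in ASC-Is against 6.74, 6.34 and 6.93 in ASC-Ns, so its fall stood in ASC-Ls. Mup5, a major urinary protein from a family of near-identical copies, rose by 0.89 (standard error 0.39) from signals of 2.78 to 3.06, among the lowest on the arrays. ASC-I replicate 2, at 3.05, did not exceed the ASC-N arrays.

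How far the calls rest on single arrays was read from fits that left out 1 array. The number of calls ran from 41 without ASC-N replicate 1 to 309 without ASC-N replicate 3. Of the 66 calls, 19 were still called without ASC-N replicate 1, 31 without ASC-N replicate 2, 45 without ASC-N replicate 3 and 40 to 52 without any 1 parous array. Of the 12 shared probe sets without overlap, 10 to 12 were still called in each of these fits. In all 9 fits, 8 probe sets were called, those of Sned1, Pparg, Trabd2b (both), Arsi, Frmd3, Jakmip2 and Tnmd. Averaged over the 38 shared falls, which were chosen for being lower in parous cells, the log2 signal was 7.19, 6.99 and 6.62 on the ASC-N arrays, 6.16, 5.78 and 5.99 on the ASC-L arrays and 6.14, 5.88 and 6.41 on the ASC-I arrays. ASC-N replicate 3 was the lowest ASC-N array in 22 of the 38 (57.9%, against 33.6% of all probe sets), and ASC-I replicate 3 the highest parous array in 12 (31.6%, against 14.7%).

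**Figure D5:**
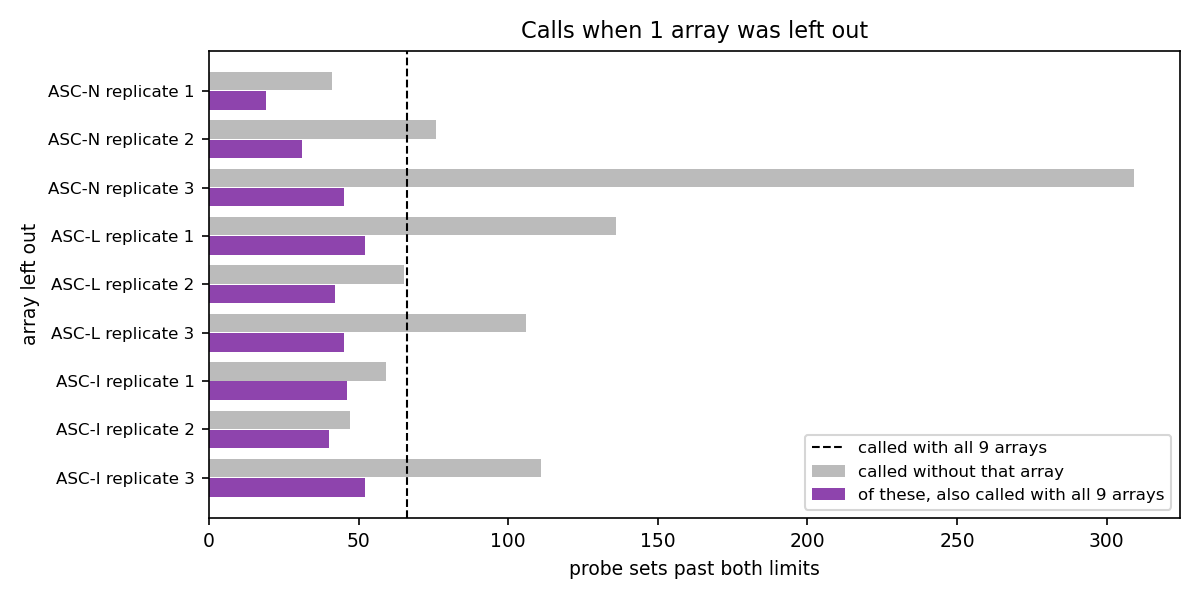
Number of probe sets past both limits (x axis) when the array named on the y axis was left out (grey), and how many of those were also called with all 9 arrays (purple); the dashed line marks the 66 calls of all 9 arrays. Without ASC-N replicate 3 the count rose to 309, and without ASC-N replicate 1 it was 41, of which 19 were among the 66.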

How the data were processed

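The deposited values are log2 signals per probe set of Affymetrix Mouse Gene 1.0 ST arrays. The authors normalized them with RMA (robust multi-array average) by the methods of the paper, whereas the submitters' processing notes name GCRMA and limma and give no versions. No further normalization was applied, no probe set was removed for low signal or detection, and scan dates were not used here. The table held 28348 probe sets, of which 21762 carried 1 symbol in the array annotation (19930 genes), 1621 several and 4965 none. Entrez identifiers of 21671 were found in the RefSeq names of GRCm38.p6, and 0 symbols differed. Array medians over the whole table were 5.93 to 6.01, and arrays of 1 group correlated across probe sets, which are not independent replicates, with r from 0.96 to 0.991.

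Each stage was given its own mean in linear models, fitted in R 4.3.3 with limma 3.58.1 and empirical Bayes moderation (6 residual and 2.97 prior degrees of freedom), and p-values were adjusted by the Benjamini-Hochberg method over 21762 probe sets. The script was tested on simulated data. With 3 arrays per stage, the number of arrays limits the precision. Arrays of equal replicate number were not treated as pairs for the parous comparison. Deviations of parous and nulliparous arrays correlated for replicates 2 and 3 (r from 0.4 to 0.5) but not for replicate 1 (-0.089 and 0.058). The reported fit and the permutation test take no account of this. With the number as a block, 131 probe sets were called in place of 66. Between the parous stages every such pair correlated (r = 0.46, 0.72 and 0.45), so the stage contrast is also given with the number as a block. The comparison, the 33 gene lists and the rule for named genes were chosen with earlier results of these data known. The rule takes the 12 largest rises and falls among shared changes without overlap, up to 4 called members of each list or 2 by value where none was called, genes with an adjusted p under 0.05, and genes that the study measured by RT-PCR. Genes it does not cover, such as the separated changes that were not shared, the small RNAs, the VEGF family and the smallest p-values, were chosen after their values were seen. Columns of other samples were not present. The alternatives tried were a robust prior with an intensity trend, both parous stages as 1 group, array weights, quantile and cyclic loess normalization, filters on SD and signal, all probe sets, the mean over the probe sets of a gene, the replicate block, other limits and leaving out arrays.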

Additional observations from a re-analysis of the deposited data

Results flagged for a closer look

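In the 6 parous arrays, 7 of the 108 probe sets examined had 1 array far from the others, by a gap to the nearest array, as a share of the range, above Dixon's critical value, which chance exceeds in about 1 in 20 groups. For Vegfa this share was 0.645, with ASC-L replicate 1 low (10.55, next 10.77). For Pax5, a B cell factor, it was 0.773, with ASC-L replicate 3 high (5.47, next 5.16). The milk protein genes Csn1s2a and Ltf gave 0.65 and 0.644, both with ASC-L replicate 2 high (6.38, next 4.70, and 7.23, next 5.50), the array that was also highest in epithelial markers. Slc1a3 gave 0.696, with ASC-I replicate 2 low (4.95, next 5.30), and Hnmt, which degrades histamine, gave 0.67, with ASC-I replicate 1 high (5.16, next 4.27). Lrrc8c gave 0.638, with ASC-L replicate 2 high (10.27, next 9.48). The part of single preparations in these values was not tested.

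The difference from ASC-Ns was not alike in the parous stages at 4 called probe sets, by the contrast of ASC-Ls against ASC-Is in the limma fit at an unadjusted p under 0.05. ASC-Ls minus ASC-Is came to 1.49 for P3h2, -5.82 for the probe set annotated to Kcnma1, -1.16 for Aldh1a2 and -1.32 for Gabra3.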

How the results depend on the processing

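Of the values of 108 single probe sets under the alternatives, 1942 kept their direction and their side of the limits, 34 passed them newly, 363 lost them and 26, at 11 probe sets, changed sign, none of these called with either setting. Leaving out both epithelial-rich arrays gave -0.904 for Krt17, -0.469 for Krt5, -0.375 for Wfdc18, -0.315 for Cspg4, 0.602 for C1s1, 0.13 for Pmp22, 0.0597 for Lipe and 0.00925 for Vegfd. Array weights gave -0.424 for Krt17, -0.0482 for Krt5, -0.202 for Wfdc18, 0.144 for C1s1 and 0.0668 for Pmp22. Over the fits without 1 array, differences ran from -1.09 to 0.547 for Rgs5, -1.25 to 0.212 for C1s1, -1.5 to 0.00504 for Kif11, -0.357 to 0.0174 for Pmp22, -0.213 to 1.24 for Krt17, -0.0246 to 0.956 for Wfdc18, -0.0134 to 0.414 for Vegfa and -0.0811 to 0.0179 for Lipe. The sign changed without ASC-N replicate 1 (Rgs5), ASC-N replicate 2 (Kif11, Vegfa and Lipe), ASC-N replicate 3 (Krt17, Wfdc18 and C1s1), ASC-I replicate 2 (Lipe) and ASC-L replicate 2 (Krt17, Wfdc18, C1s1, Pmp22 and Lipe). No alternative gave an adjusted p under 0.05. Counts are given in the order parous against nulliparous (66 with the reported fit), higher in parous (11), lower in parous (55), shared calls (41), shared calls without overlap (12) and lactation against involution among parous calls (4). Array weights gave 312 calls, 31 higher, 281 lower, 203 shared and 15 that differed between stages, with 58 of the 66 among them. The replicate block gave 131, 30, 101, 72 and 12 of these, with 65 of the 66 among them. Replicate numbers are shared between the groups, but deviations of equal-numbered arrays correlated with r = -0.089, 0.4 and 0.45 between ASC-Ls and ASC-Ns and 0.058, 0.44 and 0.5 between ASC-Is and ASC-Ns, and with r = 0.46, 0.72 and 0.45 between ASC-Ls and ASC-Is, while 8 of 9 arrays correlated best with their own number. Leaving out both epithelial-rich arrays gave 125, 20, 105, 69, 36 and 10 in the order above, no fold limit 583, 311, 272, 581, 236 and 40, and a limit of 2-fold 10, 2, 8, 5, 1 and 2. Calls that differed between stages were 2 with an intensity trend and 1 with both parous stages as 1 group, and shared calls were 19 when each stage had to pass. Leaving out 1 array gave 41 to 309 calls, 8 to 51 higher, 23 to 272 lower, 25 to 211 shared, 11 to 146 without overlap and 1 to 44 that differed between stages. The count moved by over 1.5 times when ASC-N replicate 3 (309), ASC-N replicate 1 (41), replicate 1 or 3 of ASC-Ls (136 and 106) or replicate 3 of ASC-Is (111) was left out. The cause was not tested. Counts stayed within 1.5 times under both normalizations, the filters, all probe sets, and the mean over the probe sets of each gene. Beside the fits without 1 array, Sfrp4 lost its call under quantile normalization, cyclic loess, the intensity trend, the signal filter and without both epithelial-rich arrays (-1.03), and Angpt4 under both normalizations, array weights, the 2-fold limit and without both epithelial-rich arrays (-0.442). Other calls also depended on the setting. Of the 13 settings beside the fits without 1 array, Sfrp4 and Angpt4 were each called in 8. Gch1 was called in 8, Nsg1 in 7, Tubb3 and the third probe set of Gm24463 in 6, and Osr1 in 5. Low signals limit Frmd3, Jakmip2 and Mup5.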
